A study of Homo sapiens with 6 samples.

Results

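The genes described here are 10 regulators and effectors of epithelial-mesenchymal transition (EMT), taken as a set by their symbols: SNAI1, SNAI2, ZEB1, VIM, CDH1, CDH2, FN1, LOX, TGFBI and THBS1. The deposited expression table holds 17891 genes. Of the 10, SNAI2 is not analysed here, 9 were matched by symbol, and 8 of those passed the filter on low counts. The cells were T47D, an established human breast cancer line labelled as luminal, in 3 control and 3 PRL libraries of total RNA. PRL cells carried prolactin, a hormone of the pituitary and breast, on the lentiviral vector PLVX-puro. Control cells carried the lentivirus without it, and no other treatment is labelled for either group. Both were grown in RPMI1640 with serum for 2 days and screened after infection, and whether they were single clones or pools is not stated. The series calls the 3 libraries of each group biological replicates, but whether they came from separate cultures is not stated, so p-values measure the spread between these libraries only.

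EMT is the change by which epithelial cells loosen their junctions and take on a motile, matrix-producing state. The zinc finger repressors SNAI1, SNAI2 and ZEB1 bind E-box sequences, and the best known gene they repress is CDH1, which encodes the epithelial cadherin of adherens junctions. In the textbook form of the transition N-cadherin (CDH2) and the intermediate filament protein vimentin (VIM) replace E-cadherin and keratins. Fibronectin (FN1), lysyl oxidase (LOX), which crosslinks collagen and elastin, the adhesion protein TGFBI and thrombospondin 1 (THBS1), which can activate latent TGF-beta, are laid down in the surrounding matrix. Luminal breast cancer lines are known for high E-cadherin and little vimentin.

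PRL transcript matched the labels: the controls held 3, 3 and 1 counts, and PRL libraries 8277, 8097 and 7789. Libraries held 16211146 to 17402348 counts, so that 1 count equalled 0.0575 to 0.0617 CPM (counts scaled to library size). The control libraries differed from each other more than the PRL libraries did: the chi-square statistic per gene was 13.4 to 25.7 for control pairs and 1.68 to 2.22 for PRL pairs, and pure sampling noise would give about 1. Levels are given below as the deposited TPM, a length-adjusted share of transcripts. Fold changes are PRL over control on the log2 scale, from edgeR's quasi-likelihood test on rounded counts scaled by TMM (trimmed mean of M values), with a standard error (SE) and a Benjamini-Hochberg adjusted p over 14076 genes. The scales differ: the median log2 change of all genes was 0.01 under TMM and 0.39 on log2(TPM + 1).

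Among the EMT genes, SNAI1, CDH1, FN1, LOX and TGFBI rose in the PRL libraries, THBS1 fell, and ZEB1 and VIM did not pass the test. The repressor SNAI1 and the cadherin CDH1 were therefore both higher in the same libraries. Of the 8 tested, 6 were called (75.0%), beside 62.9% of all tested genes. The 5 that rose compare with 32.4% of all genes called higher, and the 1 that fell with 30.5% called lower. In 6 of the 8 the groups did not overlap in TMM-scaled CPM, a condition met by 69.5% of all tested genes. Their median log2 fold change was 1.14, against 0.01 for all tested genes. TGFBI passed the filter through the PRL group: 3 PRL libraries and 1 control library lay above its limit of 0.605 CPM.

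**Figure D1:**
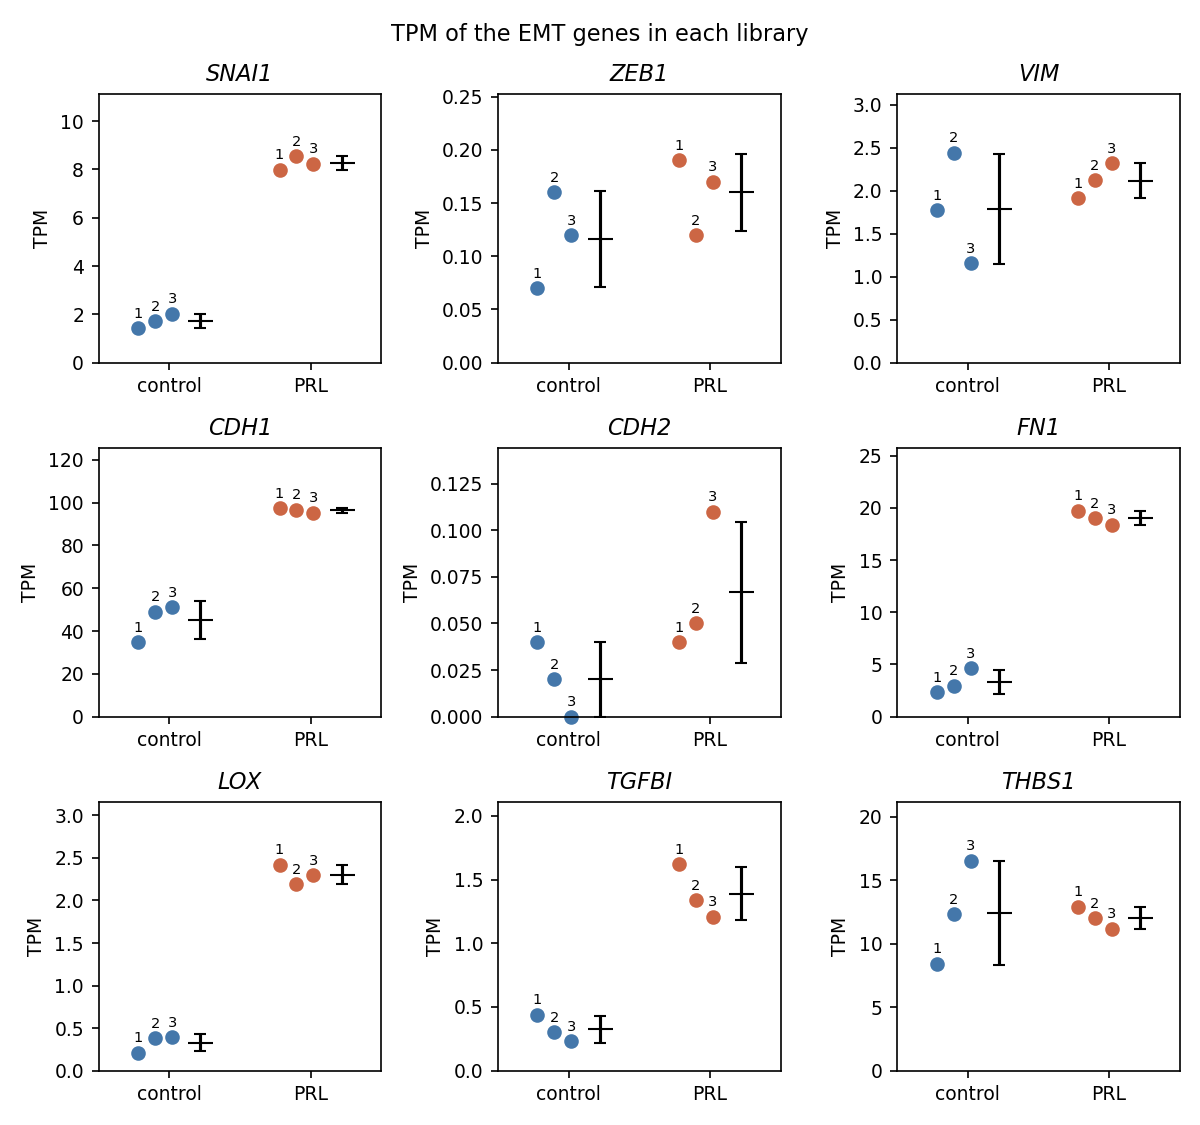
Deposited TPM of the 9 EMT genes analysed, 1 panel a gene, with each library as a numbered point and the mean ± SD (n = 3) beside it. Each panel has its own linear axis from 0. SNAI1, CDH1, FN1, LOX and TGFBI show 2 separate groups, while ZEB1, VIM and THBS1 overlap and CDH2 stays at or below 0.11 TPM.

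SNAI1 encodes Snail, the EMT repressor that is regulated both by transcription and by rapid protein turnover. Its TPM was 1.43, 1.72 and 2.03 in control replicates 1 to 3 and 7.99, 8.56 and 8.23 in the PRL libraries. All 3 PRL libraries lay far above all controls, and they differed little among themselves. The level went from 1.73 ± 0.300 to 8.26 ± 0.286 TPM (SD, n = 3). Behind these values stood 30, 32 and 38 counts in controls and 129, 143 and 135 in the PRL group. SNAI1 rose by 1.81 on the log2 scale (SE 0.15, edgeR adjusted p = 5.6e-06), a 3.51-fold difference. SNAI1 (NCBI gene 6615) lies at chr20:49982999-49988886 on the plus strand of GRCh38 (GENCODE 29), in 3 exon blocks that overlap no other gene. A processed pseudogene, SNAI1P1, lies on chromosome 2, and how reads common to both were assigned is not given in the sources used here.

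ZEB1, the other repressor analysed, was near the limit of measurement. It had 6, 11 and 8 counts in the controls and 12, 8 and 11 in the PRL libraries, or 0.07, 0.16 and 0.12 TPM against 0.19, 0.12 and 0.17 TPM. The groups overlapped. The log2 fold change was 0.10 (SE 0.38, edgeR adjusted p = 0.829), with a 95% interval of -0.74 to 0.94, so no difference was detectable at this depth, and the interval holds changes in either direction. SNAI1 stood at 10.8 to 20.4 times the TPM of ZEB1 in controls and 42.1 to 71.3 times in PRL libraries, a ratio that rests on at most 12 ZEB1 counts a library.

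Other transcription factors with known roles in EMT, a list of 12 genes of which 10 were analysed and 8 tested, went both ways: 3 rose, 1 fell and 4 did not pass, with a median log2 fold change of 0.25. On log2(TPM + 1) 7 of 7 tested were called higher, but the gene that fell was too low to be tested there. On that scale with no filter, 6 of 10 were called higher and 1 lower. TWIST1, a basic helix-loop-helix factor named here after its values were seen, rose by 1.15 on the log2 scale (edgeR adjusted p = 1.0e-04). TCF4 (E2-2, a partner of such factors) fell. Its counts were 40, 27 and 39 in controls and 1, 2 and 0 in the PRL libraries (edgeR adjusted p = 1.6e-05), so that it passed the low-count filter through the control group alone. Controls exceeded PRL libraries 40.9-fold by counts (95% counting interval 13.6 to 201.4). FOXC1 was also among those that rose. ZEB2 had 3 counts in all controls and 11 in all PRL libraries, a ratio of 3.17 whose interval of 0.837 to 17.7 includes no change.

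Corepressors and turnover factors of Snail and ZEB proteins, 16 genes, were all tested, and 7 rose while 4 fell (median log2 fold change 0.17). Without PRL replicate 2 these counts were 4 and 2, and without PRL replicate 3 they were 5 and 2. The smallest adjusted p belonged to RCOR1, the CoREST scaffold that joins the demethylase LSD1 to repressor complexes, which went from 6.60, 7.98 and 8.41 TPM to 16.81, 15.65 and 14.16 TPM (a log2 difference of 0.57, edgeR adjusted p = 1.3e-04). BTRC encodes the ubiquitin ligase subunit beta-TrCP, which marks Snail for degradation. It rose by 0.60 on the log2 scale (SE 0.10, edgeR adjusted p = 5.3e-04). KDM1A, the gene of LSD1, was among the 4 that fell under TMM, and no gene of the list was called lower with library totals (9 higher) or on log2(TPM + 1) (12 higher).

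CDH1 was the most abundant of the EMT genes in every library. Its TPM was 34.75, 48.95 and 51.24 in the controls and 97.26, 96.61 and 95.18 in the PRL libraries. The controls were spread and the PRL libraries nearly equal, with no overlap. The mean level was 45.0 ± 8.93 TPM in controls and 96.4 ± 1.06 TPM in the PRL group, from 2024 to 2665 and 4366 to 4520 counts. CDH1 rose by 0.68 on the log2 scale (SE 0.086, 95% interval 0.49 to 0.87, edgeR adjusted p = 7.4e-05), which is 1.60-fold. On the TPM settings the rise was 1.10 to 1.12 on the log2 scale, beside a median of all genes of 0.39 on log2(TPM + 1). CDH1 (gene 999) lies at chr16:68737225-68835548, plus strand. Relative to SNAI1, its TPM was 24.3 to 28.5 times as high in controls and 11.3 to 12.2 times as high in PRL libraries, ranges that did not overlap.

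CDH2, the cadherin of the textbook switch, was below the filter in both groups. It had 2, 1 and 0 counts in controls and 1, 2 and 3 in PRL libraries, or at most 0.11 TPM. The PRL-over-control ratio was 1.73 with a 95% counting interval of 0.369 to 10.7, so no difference was detectable at this depth. A library with no count allows up to 3 counts, or 0.172 to 0.185 CPM.

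Of 21 other cadherin genes 10 were tested, with 3 higher and 2 lower in PRL libraries, or 5 higher and none lower with library totals. CDH8 and CDH15, both among the 3 called higher, passed the filter through the PRL group, so their calls say little about the list. P-cadherin (CDH3), usually a myoepithelial gene, rose from 15.40, 17.83 and 19.14 TPM to 35.68, 35.06 and 33.03 TPM (log2 fold change 0.51, edgeR adjusted p = 1.0e-04). CDH8 was lower in level, with 1 control and 3 PRL libraries past the filter, and had 7, 7 and 12 counts in controls and 33, 37 and 37 in PRL libraries (log2 difference 1.82, edgeR adjusted p = 3.3e-04). As a share of the summed TPM of CDH1, CDH2 and these 21 genes, CDH1 made up 56.8% to 60.8% in controls and 63.4% to 64.4% in PRL libraries. Desmosomal cadherins were not part of this sum. No other cadherin of the sum took the place of CDH1 as the leading one in either group.

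Genes of the junction to which E-cadherin belongs moved mostly upward. Of 12 adherens junction partners, all tested, 8 rose, none fell and 4 did not pass (median log2 fold change 0.37). This is 66.7% called, beside 62.9% of all tested genes, of which 32.4% were called higher. With any 1 of the PRL libraries left out, 6 rose. No partner was called lower under any of the other scalings, filters and tests, and 1 was when control replicate 2 was left out. NECTIN4, an adhesion receptor of the junction, rose from 18.50, 28.26 and 25.34 TPM to 82.13, 77.70 and 75.80 TPM, or by 1.26 on the log2 scale (SE 0.09, edgeR adjusted p = 1.8e-06). NECTIN2 rose by 0.43 (edgeR adjusted p = 3.3e-04). Under TMM the catenins that bind the cadherin tail differed, and CTNND1 (p120) rose by 0.31. CTNNB1, CTNNA1 and JUP had log2 fold changes of -0.16, -0.07 and 0.02 there that did not pass the test. On log2(TPM + 1), however, 11 of 11 tested partners were called higher, these catenins included.

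Desmosome and epithelial surface genes rose in 6 of 14 tested cases and fell in 2, with a median of 0.19. This is 57.1% called, beside 62.9% of all tested genes. ST14, the membrane protease matriptase, rose from 224.78, 257.76 and 277.52 TPM to 606.69, 596.84 and 586.20 TPM (log2 fold change 0.79, edgeR adjusted p = 2.0e-05). Desmoplakin (DSP), which ties desmosomes to keratins, rose by 0.55 (edgeR adjusted p = 2.6e-04). The 2 that fell under TMM, DSC2 and PKP3, were not called lower with library totals or on TPM.

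Factors that maintain the epithelial state, including the grainyhead-like, OVOL, ESRP and ETS-type ELF3 and EHF genes, rose in 6 of 10 cases and fell in 2 (median 0.62). ELF3, an epithelial ETS factor, had 9.02, 11.39 and 13.29 TPM in controls and 73.06, 69.69 and 71.69 TPM in PRL libraries. This rise of 2.17 on the log2 scale (SE 0.08, edgeR adjusted p = 1.8e-08) was the largest of the list. EHF, its relative, rose by 1.12 from a mean of 65.1 to one of 192 TPM (edgeR adjusted p = 1.0e-06). The fallers were GRHL3 and ESRP2, the latter a splicing factor of epithelial transcripts, with log2 fold changes of -1.32 and -0.70, and neither was called lower on TPM.

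VIM encodes vimentin, the intermediate filament protein most used to mark mesenchymal cells. Its TPM was 1.77, 2.44 and 1.16 in controls and 1.91, 2.12 and 2.32 in PRL libraries, from 25 to 50 counts a library. The PRL libraries lay inside the range of the controls. The log2 fold change was -0.21 (SE 0.27, 95% interval -0.81 to 0.39, edgeR adjusted p = 0.512), and its sign turned with the scaling, to 0.044 with library totals and 0.18 on log2(TPM + 1). Some 24.4% of its exon bases overlap VIM-AS1 or AL133415.1 on the opposite strand, and the use of strand in counting is not given in the sources used here. CDH1 stood at 19.6, 20.1 and 44.2 times the TPM of VIM in controls and at 50.9, 45.6 and 41.0 times in PRL libraries. Control replicate 3 was as high as the PRL libraries in this ratio, through its low VIM.

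Other mesenchymal cytoskeleton and surface genes were tested in 13 of 17 cases. Under TMM 7 fell, 3 rose and 3 did not pass, with a median log2 fold change of -0.49. This is 76.9% called, beside 62.9% of all tested genes, of which 30.5% were called lower. MYL9, a myosin light chain of contractile cells, fell from 190.55, 180.84 and 144.60 TPM to 59.85, 60.54 and 66.19 TPM (log2 fold change -1.92, SE 0.15, edgeR adjusted p = 3.0e-06). TPM1, a tropomyosin of actin filaments, fell from 154.09, 169.19 and 187.42 TPM to 95.93, 98.90 and 95.99 TPM, by 1.23 on the log2 scale (edgeR adjusted p = 5.2e-07). Both groups of libraries were well apart for these genes. S100A4 (fibroblast-specific protein 1) and ACTA2 (smooth muscle actin), named after their values were seen, fell by 1.98 and by 1.01 (edgeR adjusted p = 1.5e-05 and 2.4e-05). THY1, ENG and CD44 were the 3 that rose. On log2(TPM + 1), where fewer of all genes were called lower, 4 of 11 fell, 3 rose and the median was still below 0. With no filter on that scale, 5 of 16 fell, 5 rose and the median was -0.015.

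FN1, LOX, TGFBI and THBS1 are the matrix genes of the set, and 3 of them rose while THBS1 fell. Stretches before the start of each are printed so that the sequences of the risers can be set beside that of the faller. They come from RefSeq (GRCh38.p14), which had an entry for 7 of the 9 genes analysed, and are 5′ to 3′ on the gene's strand, cut where a protein-coding exon begins. Capitals mark a match to 1 of 5 motifs searched on both strands of the 250 bases before the start: the E-box CAGGTG of Snail and ZEB factors, the AP-1 motif TGANTCA, the cyclic AMP element named CRE, with letters TGACGTCA, the STAT motif GAS, spelled TTCNNNGAA, and the TATA box, spelled TATAAA.
FN1, chr2:215436173-215436318, minus strand: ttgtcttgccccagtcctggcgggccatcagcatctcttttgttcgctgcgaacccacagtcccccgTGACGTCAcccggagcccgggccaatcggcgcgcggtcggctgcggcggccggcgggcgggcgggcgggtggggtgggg
LOX, chr5:122078361-122078509, minus strand: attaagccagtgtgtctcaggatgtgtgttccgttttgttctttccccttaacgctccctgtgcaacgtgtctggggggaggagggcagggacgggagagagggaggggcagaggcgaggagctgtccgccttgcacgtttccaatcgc
TGFBI, chr5:136028738-136028894, plus strand: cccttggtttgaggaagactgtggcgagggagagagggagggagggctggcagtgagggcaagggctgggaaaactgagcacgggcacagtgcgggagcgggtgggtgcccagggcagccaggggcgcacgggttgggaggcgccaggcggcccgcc
THBS1, chr15:39580829-39581078, plus strand: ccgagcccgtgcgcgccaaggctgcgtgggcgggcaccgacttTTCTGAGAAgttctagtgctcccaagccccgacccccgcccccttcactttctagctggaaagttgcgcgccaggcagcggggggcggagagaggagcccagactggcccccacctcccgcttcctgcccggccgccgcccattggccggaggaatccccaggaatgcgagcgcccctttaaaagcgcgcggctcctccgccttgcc
FN1 held a CRE and THBS1 a GAS match, while the windows of LOX and TGFBI held none of the 5. Of 27305 promoters of the same length, 1.75% held the CRE, 6.76% the GAS motif, 17.5% the E-box, 6.57% the AP-1 motif and 11.2% the TATA box. A match describes letters only and is no evidence of binding, and the 3 risers shared no motif of the 5. Their windows also differed in base composition, with 76.4% G or C for FN1, 72.8% for TGFBI, 69.6% for THBS1 and 55.2% for LOX, where the median promoter had 57.6%.

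FN1 had 2.34, 2.98 and 4.63 TPM in controls and 19.75, 18.99 and 18.38 TPM in PRL libraries. Control replicate 3 was the highest control and still lay far below every PRL library. The mean rose from 3.32 ± 1.18 to 19.0 ± 0.686 TPM, on 250 to 434 and 1530 to 1614 counts. Its log2 fold change was 2.1 (SE 0.15, 95% interval 1.77 to 2.43, edgeR adjusted p = 1.5e-06), or 4.28-fold. FN1 (gene 2335) lies at chr2:215360440-215436172, minus strand, and its exons overlap no other gene.

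LOX showed the largest fold change of the set under TMM. On log2(TPM + 1) the log2 fold change of FN1 was larger, at 2.25. With a pseudocount of 0.1 they were close, at 2.54 for FN1 and 2.52 for LOX. LOX had 0.21, 0.38 and 0.39 TPM in controls and 2.42, 2.19 and 2.3 TPM in PRL libraries, from 11, 19 and 22 counts and 115, 111 and 115 counts. The groups were far apart, although the control level was low. LOX rose by 2.50 on the log2 scale (SE 0.21, 95% interval 2.03 to 2.97, edgeR adjusted p = 5.5e-06), or 5.65-fold, and by 1.32 on log2(TPM + 1), a scale that understates the change of low genes. The gene (4015) lies at chr5:122063195-122078360, minus strand, with 2.49% of exon bases shared with SRFBP1.

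TGFBI was the least abundant of the genes that rose. Its counts were 15, 9 and 7 in controls and 42, 36 and 32 in PRL libraries, or 0.44, 0.30 and 0.23 TPM against 1.62, 1.34 and 1.21 TPM. All PRL libraries were above all controls. The log2 fold change was 1.60 with a wide 95% interval of 0.89 to 2.31 (SE 0.32, edgeR adjusted p = 0.00141), or 3.03-fold. TGFBI (gene 7045) lies at chr5:136028895-136063818, plus strand.

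THBS1 was the matrix gene that fell, and the call depended on the scale. Its TPM was 8.41, 12.30 and 16.54 in controls and 12.91, 12.02 and 11.18 in PRL libraries, so that on TPM the groups overlapped, with means of 12.42 ± 4.07 and 12.04 ± 0.865. In TMM-scaled CPM they did not overlap, at 54.7 ± 12.6 and 38.5 ± 1.45, and the log2 fold change was -0.51 (SE 0.14, 95% interval -0.82 to -0.20, edgeR adjusted p = 0.00875). With library totals it was -0.26 (edgeR adjusted p = 0.199), and on log2(TPM + 1) it was 0.00234. Without control replicate 3, the highest control, it was -0.30 (edgeR adjusted p = 0.0135). THBS1 (gene 7057) lies at chr15:39581079-39599466, plus strand, with 7.58% of exon bases shared with AC037198.2 or FSIP1.

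A ratio of 2 genes within a library does not depend on the scaling of that library. FN1 stood at 0.278, 0.242 and 0.280 times the TPM of THBS1 in controls and at 1.53, 1.58 and 1.64 times in PRL libraries. The order of these matrix genes was therefore reversed between the groups in all 6 libraries. This pair, like the other ratios given, was chosen with the values known, and no test is attached to it. In control TPM the order was CDH1, THBS1, FN1, VIM, SNAI1, then LOX and TGFBI, ZEB1 and CDH2, with overlapping ranges for FN1 and VIM, for VIM and SNAI1, and for LOX and TGFBI. In the PRL libraries it was CDH1, FN1, THBS1, SNAI1, LOX, VIM, TGFBI, ZEB1 and CDH2, with overlap of LOX and VIM only.

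**Figure D2:**
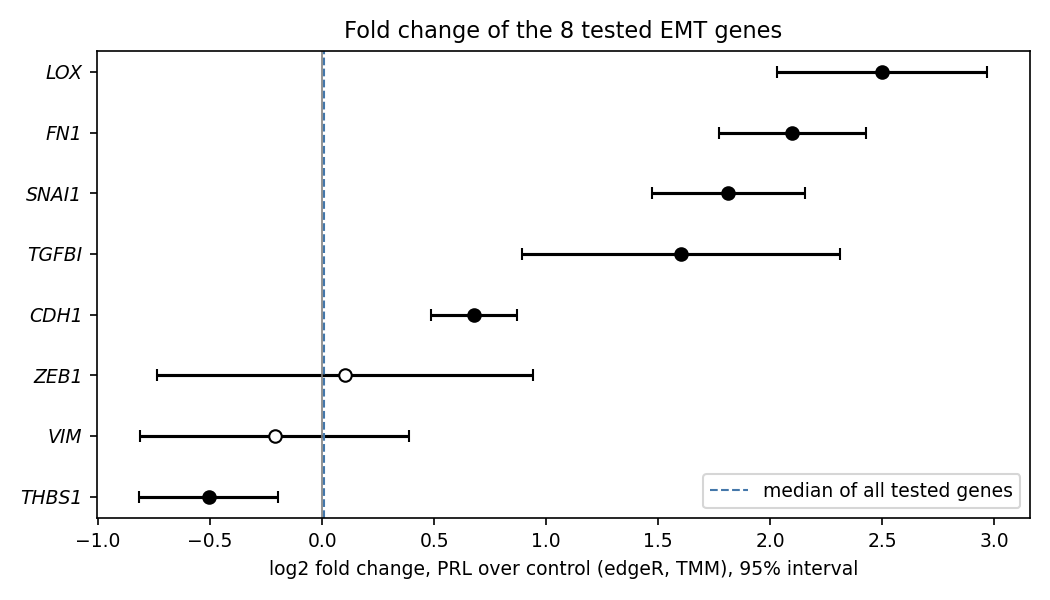
Log2 fold change of the 8 tested EMT genes (horizontal axis, PRL over control, edgeR with TMM scaling), with 95% intervals. Filled points passed an adjusted p of 0.05 and the dashed line is the median of all tested genes, 0.01. LOX, FN1, SNAI1, TGFBI and CDH1 lie right of 0, THBS1 lies left of it, and the intervals of ZEB1 and VIM cross it.

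Other extracellular matrix genes were mostly low in these cells: 8 of 17 passed the filter, 3 of them through the PRL group. Of the 8 tested, 7 rose, none fell, and COL5A2 did not pass; the median log2 fold change was 1.30. COL6A2, a chain of the microfibrillar collagen VI, had 0.62, 0.66 and 0.56 TPM in controls and 6.34, 6.70 and 6.34 TPM in PRL libraries, or 2.95 more on the log2 scale (SE 0.15, edgeR adjusted p = 1.7e-07). Its partner COL6A1 rose from 2.63, 3.84 and 3.13 TPM to 12.98, 12.41 and 11.56 TPM, by 1.5 (edgeR adjusted p = 1.6e-06). COL1A1, a chain of collagen I named after its values were seen, rose by 0.51 (edgeR adjusted p = 0.00196), while the other chain, COL1A2, had 8 counts in all controls and 10 in all PRL libraries.

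Relatives of LOX and THBS1 did not share one direction with them. LOXL1, another lysyl oxidase, fell from 3.30, 3.85 and 3.56 TPM to 2.28, 2.43 and 2.37 TPM (log2 fold change -0.997, edgeR adjusted p = 9.4e-04), and LOXL3, at 0.093, did not pass (edgeR adjusted p = 0.680), although on log2(TPM + 1) it was called higher, at 0.47 (limma adjusted p = 0.0218). Among thrombospondins and CCN genes, 5 of 10 were tested and 2 rose. THBS3 rose by 0.37 (edgeR adjusted p = 0.0046). THBS4, the other, had 6, 5 and 3 counts in controls and 18, 16 and 15 in PRL libraries (log2 fold change 1.57, edgeR adjusted p = 0.0043), and passed the filter through the PRL group alone.

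Receptors of fibronectin split as well, with 3 of 8 tested genes higher and 1 lower (2 without control replicate 3). This is 50% called, beside 62.9% of all tested genes. ITGA5, the alpha chain of the classical fibronectin receptor, rose from 5.83, 7.48 and 5.61 TPM to 19.28, 18.75 and 19.27 TPM (log2 fold change 1.24, SE 0.11, edgeR adjusted p = 7.0e-06). Its beta partner ITGB1 had a log2 fold change of -0.08 that did not pass under TMM. On log2(TPM + 1) 4 of 5 tested receptors were called higher, ITGB1 included, and 1 lower. ITGB5, which pairs with the alpha V chain, fell by 1.20 (edgeR adjusted p = 2.8e-06).

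Matrix proteases and their inhibitors rose in 6 of 11 tested cases, 3 of which had passed the filter through the PRL group, and fell in 2, neither of which was called lower on TPM. TIMP3, a matrix-bound metalloprotease inhibitor, had 0, 1 and 0 counts in controls and 12, 24 and 20 in PRL libraries (edgeR adjusted p = 1.7e-04). PRL libraries exceeded controls 48.4-fold by counts (95% counting interval 8.34 to 1946), a value that rests on 1 control count. TIMP3 passed the filter through the PRL group alone. MMP16, a membrane-anchored metalloprotease with 2 control and 3 PRL libraries past the filter, rose from 8, 12 and 13 counts to 46, 52 and 44 counts, a log2 rise of 1.89 (edgeR adjusted p = 1.1e-04).

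TGF-beta is the best studied inducer of EMT, and several of the matrix genes above are among its known targets. Of 16 tested genes of its pathway, 8 fell and 3 rose under TMM (median -0.20), but on log2(TPM + 1) 1 of 14 fell and 5 rose, with a median of 0.21. The ligand TGFB1 rose from 6.86, 8.01 and 6.14 TPM to 25.40, 26.04 and 25.16 TPM (log2 fold change 1.60, SE 0.12, edgeR adjusted p = 3.0e-06). TGFB2, another ligand, named after its values were seen, fell by 2.31 (edgeR adjusted p = 1.2e-04) and passed the filter through the control group alone. The receptor TGFBR1 fell from 12.28, 13.96 and 14.46 TPM to 6.19, 5.75 and 5.49 TPM, by 1.68 (edgeR adjusted p = 6.3e-08). TGFBR2, the other receptor chain, had 5 counts in all controls and 6 in all PRL libraries.

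**Figure D3:**
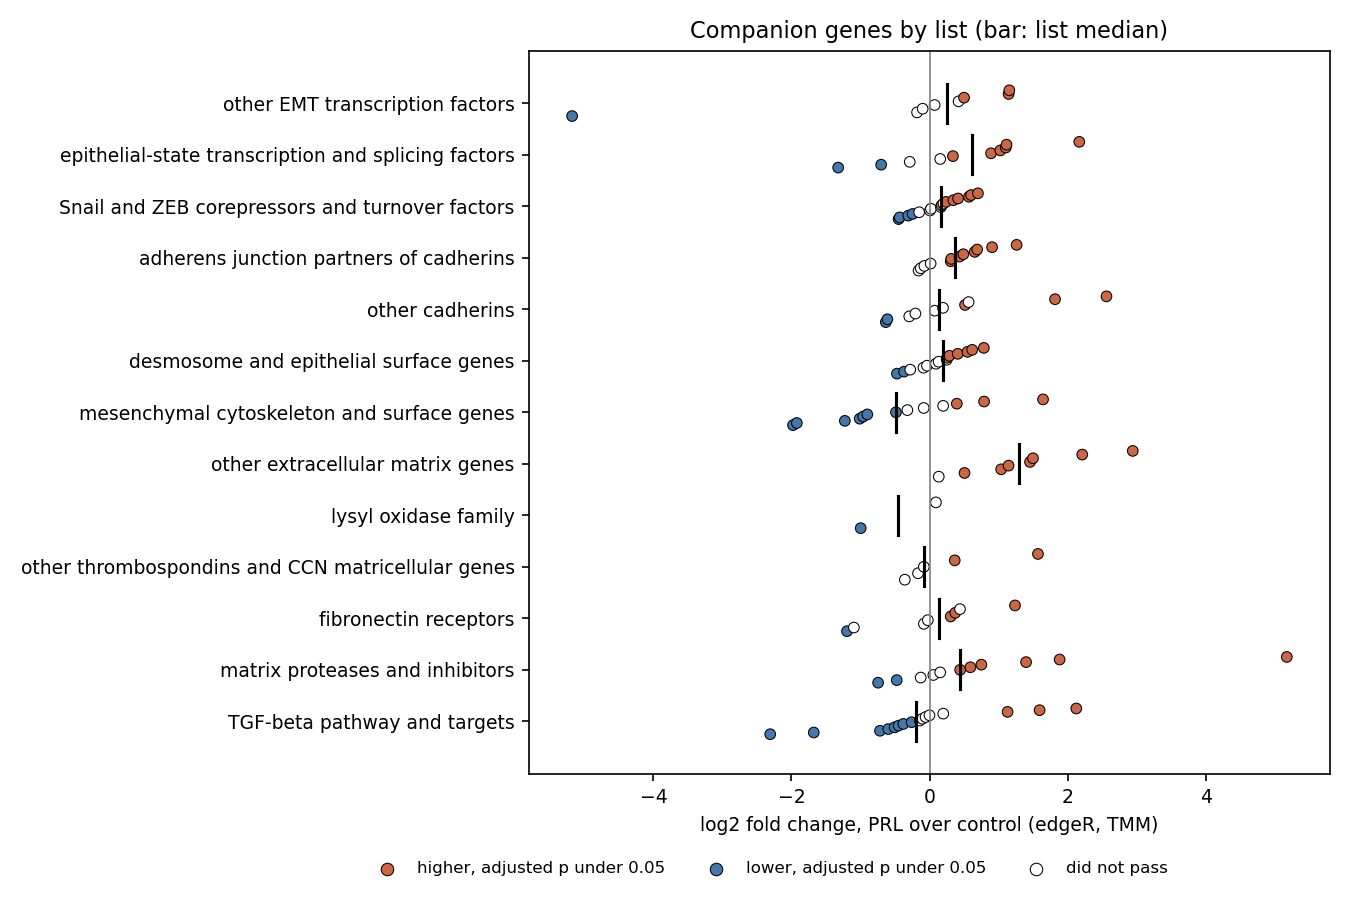
Log2 fold changes (horizontal axis, PRL over control, edgeR with TMM scaling) of the tested genes in 13 companion lists, 1 point a gene and a bar at each list's median. Points of other extracellular matrix genes lie right of 0, most mesenchymal cytoskeleton and surface genes lie left of it, and TCF4 at -5.18 and TIMP3 at 5.18 are the extremes.

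Over the 13 companion lists together, 57 of 133 tested genes rose and 30 fell, which is 65.4% called beside the 62.9% of all tested genes, with a median log2 fold change of 0.16. In share of genes called, the lists as a whole thus lay near the background. By list the share ran from 40% for thrombospondin and CCN genes to 87.5% for other extracellular matrix genes. It was 66.7% for adherens junction partners, 80% for epithelial-state factors, 68.8% for corepressors and turnover factors, and 50% for fibronectin receptors.

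Markers of cell types were read in the same libraries. Keratins 8, 18 and 19 and the other luminal markers summed to 17641 to 19291 TPM in controls and 17274 to 17497 TPM in PRL libraries, as the luminal label has it. Of 8 luminal markers, 3 were called higher: PGR, GATA3 and FOXA1, by 0.85, 0.23 and 0.49 on the log2 scale. Another 4 were called lower under TMM: KRT8, KRT18, KRT19 and ESR1, with log2 fold changes of -0.60, -0.73, -0.47 and -0.35. EPCAM, at 0.09, was not called. In mean TPM, KRT8 and KRT18 were also lower in PRL libraries, KRT19 was nearly equal and ESR1 was slightly higher. No test on TPM is given for these 4 genes. Basal markers summed to 1.07 to 1.53 and 3.46 to 4.32 TPM, with both tested of 4 higher. Fibroblast markers summed to 11.4 to 16.1 TPM in controls and 23.8 to 24.7 TPM in PRL libraries, and thus moved with FN1, LOX and TGFBI. That sum was nearly all COL1A1, the 1 tested of 7. The other 6 (COL1A2, COL3A1, DCN, LUM, PDGFRA and PDGFRB) were at most 0.09 TPM in any control and 0.12 TPM in any PRL library. Endothelial markers summed to 0.19 to 0.34 and 0.26 to 0.30 TPM, with 1 tested and not called. Leukocyte markers summed to 3.38 to 5.47 and 7.83 to 8.80 TPM, and their part in the results was not tested. Of 4 tested, CD3E and CD14 were called higher, and both had passed the filter through the PRL group. In bulk RNA, a change in the share of cells that express a gene and a change in RNA per cell cannot be told apart.

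**Figure D4:**
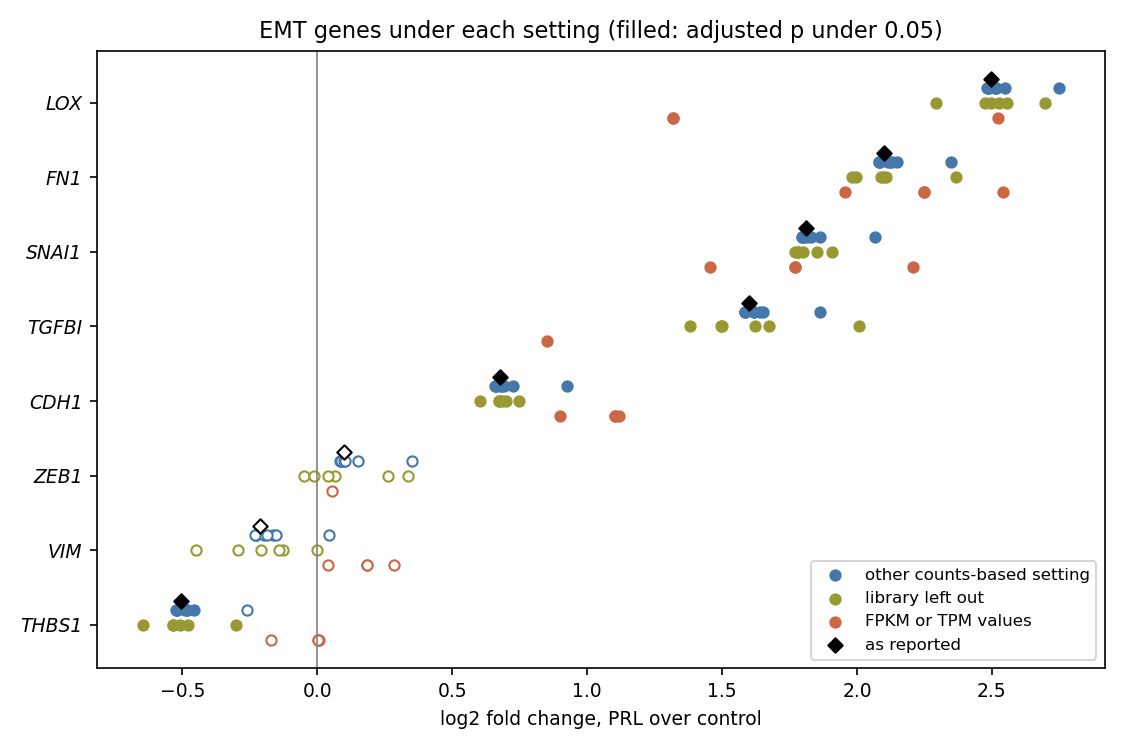
Log2 fold change (horizontal axis, PRL over control) of the 8 tested EMT genes as reported (black) and under every other setting run: other counts-based scalings, filters and tests, each library left out, and FPKM or TPM values. Filled points passed an adjusted p of 0.05. SNAI1, CDH1, FN1, LOX and TGFBI stay right of 0 and filled, VIM and ZEB1 straddle 0 unfilled, and THBS1 reaches 0 on TPM.

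SNAI1, CDH1 and FN1 were called higher in all 18 other settings, and LOX and TGFBI in the 17 and 15 in which they were tested. Their log2 fold changes ranged from 1.46 to 2.21 for SNAI1, 0.60 to 1.12 for CDH1, 1.95 to 2.54 for FN1, 1.32 to 2.75 for LOX and 0.85 to 2.01 for TGFBI. THBS1 was called in 13 of 18. Leaving out single libraries moved SNAI1 between 1.77 and 1.91, FN1 between 1.98 and 2.37, and CDH1 between 0.60 and 0.75, so none of these rises rested on 1 library.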

How the data were processed

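Total RNA (Trizol) of 3 control and 3 PRL libraries was sequenced on Illumina instruments' standard protocols, per the labels. HISAT2 2.1.0, Bowtie2 2.3.4.3 and GRCh38.p13 are named in the submitters' processing notes. Which tool counted, with which annotation and strand setting, is not given in the sources used here. The authors deposited an estimated count per gene and library, per the file headers. The FPKM values were scaled by the authors to gene length and library size. The authors' TPM values are length-adjusted shares of all transcripts. From 44.1% to 45.9% of the deposited counts per library were not whole, and they were rounded here. The authors' 6 columns of group means were not used.

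Counts were tested with edgeR 4.0.16 in R 4.3.3 (robust quasi-likelihood, TMM, filterByExpr), which kept 14076 genes, with Benjamini-Hochberg adjustment and a threshold of 0.05. Count totals per library ran from 16211146 to 17402348. Counting intervals and floors cover counting error alone, because PCR copies are not independent. The EMT genes, companion lists and markers were chosen with earlier results of these data known. Named were PRL, the EMT genes and, from each of 13 lists, the 2 tested genes with the smallest adjusted p; all other list genes named were chosen after their values were seen. For 1 gene picked by this rule no value is reported, though the counts of its list include it. Alternatives were other scalings (DESeq2 size factors, upper quartile, library totals), no filter, a stricter one (3 libraries at 1 CPM or more), the tests of DESeq2 1.42.0 and of limma-voom (3.58.1), a replicate block, each library left out, and limma fits of log2-transformed FPKM (pseudocount 1) or TPM (1 or 0.1). The tests were checked on simulated counts. GENCODE 29 (GRCh38) gave gene positions and overlapping exons.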

Additional observations from a re-analysis of the deposited data

How the results depend on the processing

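The balance of calls differed between settings; those on FPKM and TPM also changed the test and the filter. As reported, 4554 genes were higher and 4300 lower. Genes called lower numbered 2394 with library totals, 2356 on FPKM, and 1375, 1363 and 1438 on log2(TPM + 1), log2(TPM + 0.1) and log2(TPM + 1) with no filter. Genes called higher numbered 7118, 7048 and 8076 on the same 3 TPM settings, and the share higher went from 51.4% to 83.8% on log2(TPM + 1), 69.9% on FPKM and 72.9% with library totals. Companion genes called lower went from 30 to 17 with library totals, 13 on FPKM, and 7, 7 and 11 on the TPM settings. Of the EMT genes 0 were called lower in each of these 5 settings, and 3 higher on FPKM, where fewer genes (not LOX or TGFBI) were tested. THBS1 reversed to 0.00234, 0.00618 and 0.00234 on the TPM settings, and was -0.17 on FPKM (limma adjusted p = 0.372). VIM reversed to 0.044 with library totals, 0.039 on FPKM, and 0.18, 0.28 and 0.18 on the TPM settings. Leaving out a library moved ZEB1 between -0.049 and 0.33 and LOXL3 between -0.078 and 0.22, and VIM between -0.45 and -0.00139, none of them called there. LOXL3 was called higher in the 3 TPM settings, at 0.47, 0.65 and 0.47. The cause of these changes was not tested. Counts per companion list and direction stayed within 1.5 times in 391 of 468 cases and moved in 77. Lower calls moved by more than that without control replicate 1 or 3 for other EMT factors (1 to 2), without control replicate 2 for adherens partners (0 to 1) and other cadherins (2 to 1), and without PRL replicate 1 for proteases (2 to 1). They also did so without control replicate 3 for fibronectin receptors (1 to 2), and without PRL replicate 2 or 3 for corepressors and turnover factors (4 to 2).

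Same-numbered libraries did not deviate together (correlations of -0.12, 0.02 and -0.08). With 3 libraries a group this cannot show whether the numbers pair the samples, and the labels do not say. With a replicate block, 4423 genes were higher and 4108 lower, and 5 and 1 of the EMT genes, and 2 fibronectin receptors were lower instead of 1. Depth limits ZEB1, CDH2 and TGFBI most, with 0 to 42 counts per library.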

Other observations

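Some companion genes lay below the filter on low counts and were not tested, and are named here after their values were seen. MMP13 (collagenase 3) had 0 counts in every control and 12, 10 and 11 in the PRL libraries, at least 3.17-fold higher if each control is set to 3 counts. CCN2 (connective tissue growth factor), a known target of TGF-beta and YAP signalling, had 5, 6 and 6 counts in controls and 0, 0 and 1 in PRL libraries. Its control-over-PRL ratio was 19.7, with a 95% counting interval of 3.08 to 821.9. DES, which encodes the muscle filament protein desmin, had 2 counts in all controls and 12 in all PRL libraries, a ratio of 5.19 with an interval of 1.15 to 47.7. TNC (tenascin C) had 13 counts in all controls and 5 in all PRL libraries, and its control-over-PRL ratio of 3.01 had an interval of 1.01 to 10.8. These intervals cover counting error only and not the spread between libraries.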
